A study of Mus musculus with 18 samples.

Results

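The 10 transcripts described here, Ngp, Ltf, Camp, Lcn2, S100a8, S100a9, Retnlg, Mpo, Elane and Csf3r, encode granule proteins and other marker proteins of neutrophils, and they were measured in sorted synovial macrophages of mice. They were picked by name, because they were present in libraries of MHCII+CD11c- macrophages, and they are 10 of the 24421 gene symbols in the count tables. What follows describes how much of each library they took up. Levels in MHCII+CD11c- libraries, and every contrast of those libraries, are therefore given as a description of the transcripts without a test.

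Bulk RNA was sequenced from 3 macrophage subsets of the synovium of adult WT mice of both sexes (C57BL/6 in the labels, C57BL/6J in the study's methods), each subset in 3 untreated libraries and in 3 libraries prepared 8 h after intravenous injection of immune complexes (IC), which makes 18 libraries. IC were ovalbumin bound by rabbit polyclonal antibody against ovalbumin, and no library carried a genetic change. Mice were perfused, the synovium was dissected from the bone and digested, and cells pooled from several legs were sorted from CD11b+ cells as LYVE1+CX3CR1+, MHCII+CD11c- or MHCII+CD11c+ macrophages, with no Ly6G gate named for the sort. The labels do not say whether the 3 libraries of a group came from separate mice. A figure legend of the study counts several mice for each plotted point of a subset. Its larger count for the whole subset reads as separate pools of mice. That legend names no IC treatment, so the mice behind the IC libraries remain unstated. P-values measure only the spread between the libraries of a group. In bulk RNA, fewer neutrophils and less RNA per neutrophil cannot be told apart.

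Libraries held 245903 to 2172358 assigned counts, and the smallest were the IC libraries 2 and 1 of MHCII+CD11c- macrophages, with 245903 and 381217. Of the macrophage markers listed, 8 of 8 had counts in every group, which does not tell the sorts apart. Their sums were 7129 to 17273 CPM (counts per 1000000 of the library, scaled between libraries by TMM). H2-Ab1, an MHCII chain, stood at 20.1 to 44.3 CPM in the 6 LYVE1+CX3CR1+ libraries and at 2669.6 to 7825 CPM in the 12 MHCII+ libraries. It separated MHCII+ from LYVE1+CX3CR1+ libraries, while the split by CD11c was not checked here. Sample titles call one sort IAIE, which was read as MHCII+CD11c- from the study's naming of the subsets.

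Neutrophils are short-lived phagocytes that form in the bone marrow and carry their killing proteins ready-made in granules. Primary granule genes such as Mpo and Elane are transcribed at the promyelocyte stage, secondary granule genes such as Ngp, Ltf and Camp at the myelocyte stage, and transcripts of both groups fall as the cells mature, while S100a8, S100a9, Csf3r and chemokine receptors remain abundant in neutrophils of the blood. The C/EBP transcription factors and PU.1 drive much of this programme.

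All 10 transcripts had a promoter entry in RefSeq (GRCm38.p6), and the 250 bases before each RefSeq start were searched on both strands for TTNNGCAA, a core letter pattern of C/EBP sites, and for GAGGAAGT, a core letter pattern of PU.1 sites. The first was found in 5 of 10 promoters (Ngp, Ltf, Lcn2, S100a9 and Retnlg) and in 9.56% of all 32851 promoter entries. The second was found in 3 of 10 (Mpo, Elane and S100a8) and in 2.44% of all entries. A letter match is a description and does not show binding. The promoters of 2 secondary and 2 primary granule genes are shown because these sets had different levels between libraries. Gene positions given below are those of GENCODE M21, in which 8 of the 10 genes begin before the RefSeq start, by 61 bases for Ngp, 21 for Ltf, 203 for Mpo and 65 for Elane, and the sequences shown hold only the part of the window before both starts. Capitals mark the matches, and each sequence reads 5′ to 3′ on the strand of its gene. They lie at chr9:110419558-110419746 for Ngp, chr9:111019042-111019270 for Ltf, chr11:87793534-87793580 for Mpo and chr10:79886062-79886246 for Elane, all on the plus strand.
Ngp: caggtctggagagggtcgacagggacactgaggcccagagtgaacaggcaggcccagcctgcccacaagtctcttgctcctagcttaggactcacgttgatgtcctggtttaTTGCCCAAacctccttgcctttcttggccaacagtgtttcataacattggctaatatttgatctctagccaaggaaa
Ltf: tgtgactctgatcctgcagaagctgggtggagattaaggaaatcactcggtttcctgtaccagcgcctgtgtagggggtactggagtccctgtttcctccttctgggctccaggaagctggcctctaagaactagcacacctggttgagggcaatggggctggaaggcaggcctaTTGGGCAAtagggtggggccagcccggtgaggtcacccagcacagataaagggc
Mpo: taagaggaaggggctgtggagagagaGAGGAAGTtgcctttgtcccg
Elane: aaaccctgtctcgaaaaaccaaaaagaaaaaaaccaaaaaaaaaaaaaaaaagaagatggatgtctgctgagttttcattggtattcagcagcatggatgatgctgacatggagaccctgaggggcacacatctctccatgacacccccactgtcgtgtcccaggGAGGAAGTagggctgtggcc
Counted back from the RefSeq start, the C/EBP pattern stood at bases 138 to 131 in the Ngp promoter, on the minus strand, and again at bases 11 to 4, on the plus strand, which GENCODE places inside the gene and which are not shown. It stood at bases 75 to 68 in Ltf, and the PU.1 pattern stood at bases 224 to 217 in Mpo and 85 to 78 in Elane. None of the 10 promoters held both patterns.

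Secondary granule transcripts were present in both MHCII+ sorts and at or near 0 in all but 1 of the LYVE1+CX3CR1+ libraries. Ngp, neutrophilic granule protein, lies at chr9:110419747-110423012 (GRCm38, plus strand). In libraries 1, 2 and 3 of untreated MHCII+CD11c- macrophages it reached 591, 171 and 229 CPM, and after IC 293, 339 and 982 CPM. In MHCII+CD11c+ macrophages it stood at 149, 0 and 58.8 CPM without treatment and at 227, 309.9 and 433 CPM after IC. Untreated MHCII+CD11c+ library 2 held no Ngp count, while the 3 IC libraries all lay above the 3 untreated ones. None of the 3 untreated LYVE1+CX3CR1+ libraries had an Ngp count, and a count of 0 allows up to 3 counts, or 1.62 to 2.02 CPM. After IC, library 2 alone had Ngp, at 34.8 CPM from 66 counts.

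Ltf, the iron-binding lactotransferrin (chr9:111019271-111042767, plus strand), followed the same libraries. It stood at 391, 166 and 150.2 CPM in untreated and 282, 124 and 849 CPM in IC libraries of MHCII+CD11c- macrophages. In the MHCII+CD11c+ sort it stood at 81.4, 0 and 33.8 CPM untreated and 143, 278 and 320.4 CPM after IC, with the IC libraries again all above the untreated ones. Camp, the cathelicidin precursor (chr9:109847379-109849617, minus strand), is made as a proprotein that is cut into an antimicrobial peptide. It stood at 99.99, 33.01 and 19.4 CPM in untreated and 62.8, 48.9 and 139 CPM in IC libraries of MHCII+CD11c- macrophages, and at 24.2, 0 and 10.6 CPM in untreated and 16.97, 63.7 and 44.5 CPM in IC libraries of MHCII+CD11c+ macrophages. Its untreated and IC libraries overlapped in both sorts. In LYVE1+CX3CR1+ macrophages the 6 libraries held 48 Ltf counts in IC library 2, 2 in IC library 3 and none elsewhere, and a single Camp count in IC library 2.

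Lcn2 encodes lipocalin 2, a siderophore-binding protein stored in secondary granules and also made by many inflamed cells (chr2:32384633-32388252, minus strand). Its level was 167, 39.1 and 88.9 CPM in untreated and 219.6, 139 and 579 CPM in IC libraries of MHCII+CD11c- macrophages, which overlapped. MHCII+CD11c+ macrophages had 34.7, 0.657 and 18.8 CPM without treatment and 147, 197 and 305 CPM after IC, with no overlap. LYVE1+CX3CR1+ macrophages had Lcn2 in IC library 2 alone, at 17.9 CPM from 34 counts.

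S100a8 and S100a9 encode the subunits of calprotectin, a cytosolic calcium- and zinc-binding protein, and lie side by side at chr3:90668978-90670035 and chr3:90692632-90695721. S100a9 reached 473, 188 and 175 CPM in untreated and 580.5, 576 and 1389 CPM in IC libraries of MHCII+CD11c- macrophages, and every IC library was above every untreated one. In MHCII+CD11c+ macrophages it went from 172, 0.657 and 42.9 CPM untreated to 373, 549 and 887 CPM after IC, also without overlap. S100a8 was likewise without overlap between treatments in both sorts. It stood at 185, 88.02 and 113 CPM in untreated and 295, 313 and 603 CPM in IC libraries of MHCII+CD11c- macrophages, and at 87.7, 0.657 and 17.8 CPM in untreated and 184, 259.5 and 415 CPM in IC libraries of MHCII+CD11c+ macrophages. In LYVE1+CX3CR1+ macrophages S100a9 was at 0, 0 and 2.15 CPM untreated and at 0, 49.6 and 6.24 CPM after IC, so that IC library 2 stood apart from its group.

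Retnlg, a secreted resistin-like protein of mature neutrophils with close relatives in its gene family (chr16:48872621-48874496), was at 48.8, 42.8 and 11.2 CPM in untreated and 41.8, 15.1 and 41.1 CPM in IC libraries of MHCII+CD11c- macrophages, with nearly equal means. It was at 24.7, 1.97 and 7.72 CPM in untreated and 16.97, 25.2 and 64.6 CPM in IC libraries of MHCII+CD11c+ macrophages, which overlapped. Csf3r, the receptor for granulocyte colony-stimulating factor (chr4:126024550-126044440), was the 1 transcript of the 10 with counts in all 18 libraries. It stood at 12.1, 12.5 and 8.61 CPM in untreated and 18.04, 28.99 and 16.8 CPM in IC libraries of LYVE1+CX3CR1+ macrophages, where Ngp was at 0 in 5 of 6. In MHCII+CD11c- macrophages Csf3r was at 43.02, 44.01 and 40.9 CPM untreated and at 73.2, 37.7 and 95.1 CPM after IC, which overlapped. In MHCII+CD11c+ macrophages it was at 31.00, 15.8 and 23.1 CPM untreated and at 43.2, 73.9 and 81.02 CPM after IC, without overlap. With the other 9 transcripts near 0 in most LYVE1+CX3CR1+ libraries, Csf3r made up 18 of 18, 20 of 21 and 16 of 25 of the summed counts in untreated libraries 1, 2 and 3.

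Primary granule transcripts were almost confined to 1 library. Mpo, myeloperoxidase (chr11:87793581-87804413), had 202 counts over all 18 libraries, of which 183 (90.6%) were in untreated MHCII+CD11c+ library 1. Elane, neutrophil elastase (chr10:79886247-79888215), had 51 counts, of which 50 (98.0%) were in that same library. There Mpo stood at 96.1 CPM and Elane at 26.3 CPM, while Ngp, at 149 CPM, was below its level in each of the 3 untreated MHCII+CD11c- libraries. Mpo reached 11.6, 2.44 and 1.02 CPM in those 3 libraries, and after IC it had at most 2 counts in any library of any subset. Both transcripts were at 0 in all 6 LYVE1+CX3CR1+ libraries, and neither passed the filter on low counts, so neither was tested. The 6 further genes listed for the promyelocyte stage did not all follow this library. Ctsg (cathepsin G) had 10 counts and Prtn3 (proteinase 3) had 6 counts there, against at most 5 and 2 in any other library, and Ms4a3 had 2 there and at most 1 elsewhere. Gfi1, a transcription repressor, was at 0 there and had 12 counts in untreated MHCII+CD11c- library 2. Fcnb (ficolin B) had 1 count there and 7 in MHCII+CD11c- IC library 3, and Cebpe, a C/EBP factor of granulocytes, had 13 there and 22 in MHCII+CD11c+ IC library 3.

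**Figure D1:**
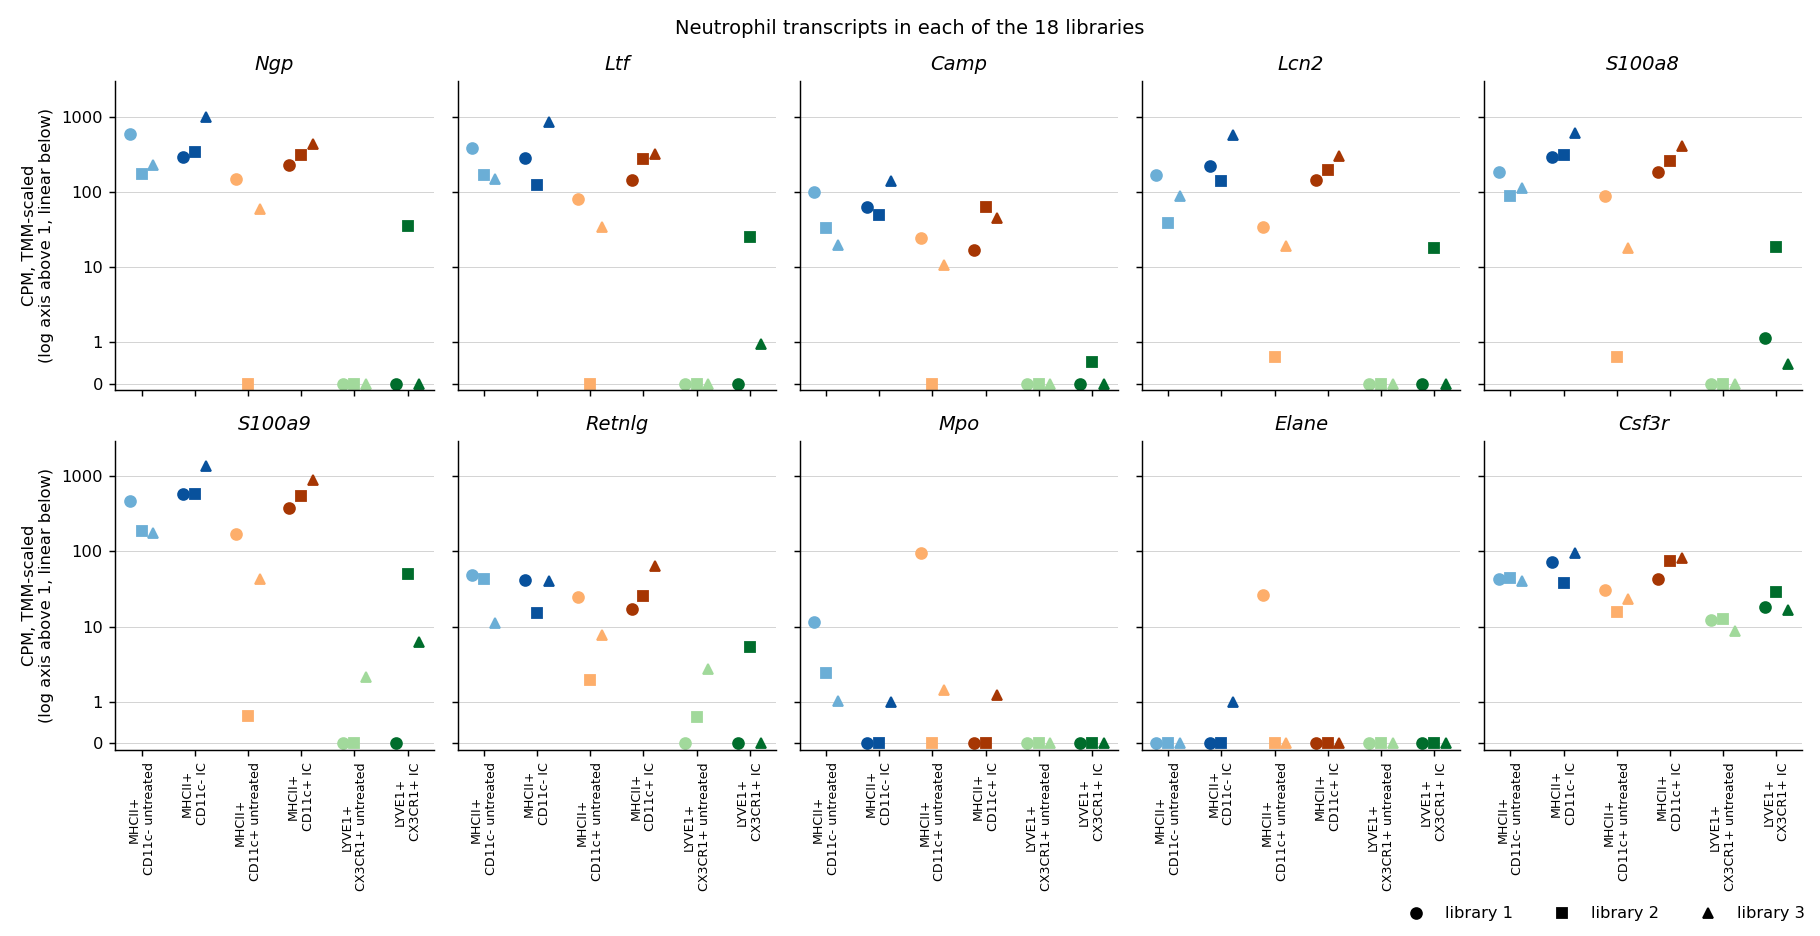
Each panel plots 1 of the 10 transcripts in CPM (TMM-scaled, log axis above 1 and linear below) for the 3 libraries of each subset and treatment, with the symbol giving the library number. Ngp is between 171 and 982 CPM in the 6 MHCII+CD11c- libraries and at 0 in all LYVE1+CX3CR1+ libraries but IC library 2, and Elane stands out in untreated MHCII+CD11c+ library 1 alone.

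Summed over the 10 transcripts, the level ordered the sorts MHCII+CD11c-, MHCII+CD11c+ and LYVE1+CX3CR1+. In untreated mice the sum was 1205 ± 698 CPM (SD, n = 3) in MHCII+CD11c- macrophages, 321 ± 365 CPM in MHCII+CD11c+ macrophages and 12.9 ± 0.699 CPM in LYVE1+CX3CR1+ macrophages. After IC it was 2707 ± 1713, 1819 ± 702 and 74.8 ± 91.8 CPM. The 2 MHCII+ sorts did not overlap without treatment, since the lowest MHCII+CD11c- library, at 775 CPM, was above the highest MHCII+CD11c+ library, at 727 CPM, but they overlapped after IC. Without untreated library 1 the means without treatment were 802 CPM in MHCII+CD11c- and 117 CPM in MHCII+CD11c+ macrophages. Untreated and IC libraries overlapped in MHCII+CD11c- macrophages and did not overlap in the other sorts. In LYVE1+CX3CR1+ macrophages this rested on Csf3r, since the sum of the other 9 was at 0, 0.627 and 4.85 CPM untreated and at 1.13, 152 and 7.68 CPM after IC, which overlapped.

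As a share of all counts, the 10 transcripts ranged from 0.00117% (95% Wilson interval 0.000738 to 0.00184%) in untreated LYVE1+CX3CR1+ library 1 to 0.480% (0.466 to 0.494%) in MHCII+CD11c- IC library 3. These intervals cover counting error only. Among MHCII+CD11c- libraries the other shares were 0.196, 0.0757 and 0.0823% untreated and 0.185 and 0.172% in IC libraries 1 and 2. MHCII+CD11c+ libraries had 0.0698, 0.00189 and 0.0205% untreated and 0.111, 0.171 and 0.259% after IC. Untreated library 2 of this sort therefore had a share within the range of the LYVE1+CX3CR1+ libraries, with 30 counts of which 24 were Csf3r. Libraries of a group could differ by more than counting error, since the interval of untreated MHCII+CD11c- library 1, 0.187 to 0.205%, lay above those of libraries 2 and 3.

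**Figure D2:**
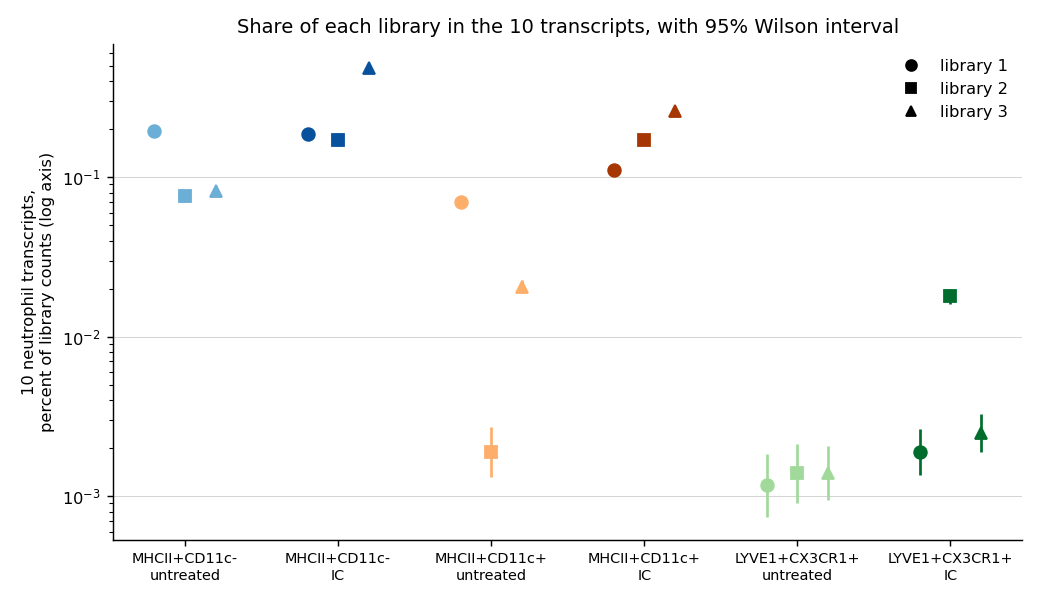
The summed counts of the 10 transcripts are plotted as a percentage of each library's counts on a log axis, with 95% Wilson intervals as vertical lines and the library number as the symbol. MHCII+CD11c- libraries lie between 0.0757 and 0.480%, LYVE1+CX3CR1+ libraries at or below 0.00249% except IC library 2 at 0.0179%, and untreated MHCII+CD11c+ libraries span 0.00189 to 0.0698%.

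Per kilobase of exon (union of all exons of a gene in GENCODE M21), the transcripts can be ordered within a sort. Such a union, 2623 bases for Lcn2, can be longer than the transcript expressed, which would lower the value. The annotation used for counting is not given, so the order is approximate. In untreated MHCII+CD11c- macrophages S100a9 was highest at 534 ± 323 CPM per kb, followed by Ngp at 270 ± 186 and S100a8 at 186 ± 72.4, which did not differ beyond their spread. Ltf (68.3 ± 39.0), Camp (67.0 ± 56.9), Retnlg (57.8 ± 34.0) and Lcn2 (37.5 ± 24.7) followed and overlapped, then Csf3r at 11.8 ± 0.446 and Mpo at 1.47 ± 1.68 CPM per kb. After IC S100a9 was at 1626 ± 897 and S100a8 at 582 ± 249 CPM per kb, and Ngp, at 440 ± 315, came after both. In IC libraries of MHCII+CD11c+ macrophages the same 3 led, with S100a9 at 1155 ± 500, S100a8 at 412 ± 170 and Ngp at 264 ± 84.7 CPM per kb.

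Between sorts, ratios of mean CPM were large against LYVE1+CX3CR1+ macrophages. Without treatment MHCII+CD11c- macrophages held at least 180-fold more Ngp, and the excess was for Ltf at least 128-fold, S100a8 at least 70.0-fold and Camp at least 27.6-fold, each set against the mean of 3 counts per LYVE1+CX3CR1+ library because that group was at or near 0. Without untreated MHCII+CD11c- library 1 the bounds were 109-fold for Ngp and 14.2-fold for Camp. Csf3r differed less, at 3.84-fold. Of the 10 transcripts, 9 were higher in every untreated MHCII+CD11c- library than in every untreated LYVE1+CX3CR1+ library, as were 14.6% of the 10550 genes that passed the filter on low counts, and 8 after IC, as were 11% of genes. Nothing is read from these counts, since the transcripts were chosen on this sort. MHCII+CD11c+ macrophages had 3 of 10 transcripts above every LYVE1+CX3CR1+ library without treatment (21.6% of genes) and 8 of 10 after IC (20.3% of genes). These counts too are only a description, since the transcripts were chosen with earlier results of these data known. Of the 8 that passed the filter, 5 had no count in any untreated LYVE1+CX3CR1+ library. Mpo and Elane did not pass it and are not among the 10550 genes. Against untreated MHCII+CD11c+ libraries, MHCII+CD11c- libraries were all higher for 6 of 10 transcripts (10% of genes), with Ngp 4.77-fold, Ltf 6.14-fold and Csf3r 1.83-fold higher in mean CPM. After IC none of the 10 was without overlap between these sorts (6.56% of genes), and the ratios were 1.67-fold for Ngp, 1.69-fold for Ltf and 1.04-fold for Csf3r. These ratios moved with single libraries. Without untreated MHCII+CD11c+ library 1 the untreated ratios were 11.2-fold for Ngp and 13.96-fold for Ltf, and without untreated MHCII+CD11c- library 1 that of Ngp was 2.89-fold. After IC the ratios turned below 1 without MHCII+CD11c- IC library 3, at 0.978 for Ngp, 0.823 for Ltf and 0.839 for Csf3r, and that of Csf3r was 0.886 without MHCII+CD11c+ IC library 1.

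The response to IC asks whether circulating complexes changed these transcripts within a sort. For MHCII+CD11c+ macrophages, log2 fold changes with their standard error (SE) were tested by the quasi-likelihood method of edgeR, and p-values were adjusted after Benjamini and Hochberg over the 10550 genes. Lcn2 rose by 3.54 (SE 0.71, adjusted p = 0.0152), S100a8 by 2.998 (SE 0.66, adjusted p = 0.0320) and Csf3r by 1.52 (SE 0.32, adjusted p = 0.0200). All 3 were higher in 3 of 3 IC libraries than in any untreated library. S100a9, at 3.06 (SE 0.75), had an adjusted p of 0.0539. Ltf was at 2.67, Ngp at 2.21, Camp at 1.85 and Retnlg at 1.65, with adjusted p from 0.127 to 0.443 by the same edgeR test.

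Thus 3 of the 8 transcripts tested were called higher, against 0.483% of all genes, and the median log2 fold change of the 8 was 2.44 against -0.01 over all genes. By overlap of libraries, 6 of the 10 transcripts had all IC libraries above all untreated ones, as did 8.51% of genes. The calls changed on leaving out 1 library: none of the 8 was called by edgeR without untreated library 2, without untreated library 3 or without IC library 3, 1 was called without IC library 2, and 5 were called without untreated library 1. Leaving out a library also leaves fewer to compare, which was not told apart from the part of that library. DESeq2 called Csf3r alone. This transcript, 1 of the 3, had counts in all 18 libraries. Untreated library 2 of this sort held 24 Csf3r counts and 0 Ngp counts, so Csf3r was also found without the secondary granule transcripts. Genes of mast cells, basophils and eosinophils moved with this response: the 6 listed, all with counts in this sort, summed to 24.7, 22.4 and 6.27 CPM in untreated and 119, 64.5 and 218 CPM in IC libraries, without overlap and with IC library 3 highest. Their part in the result was not tested.

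**Figure D3:**
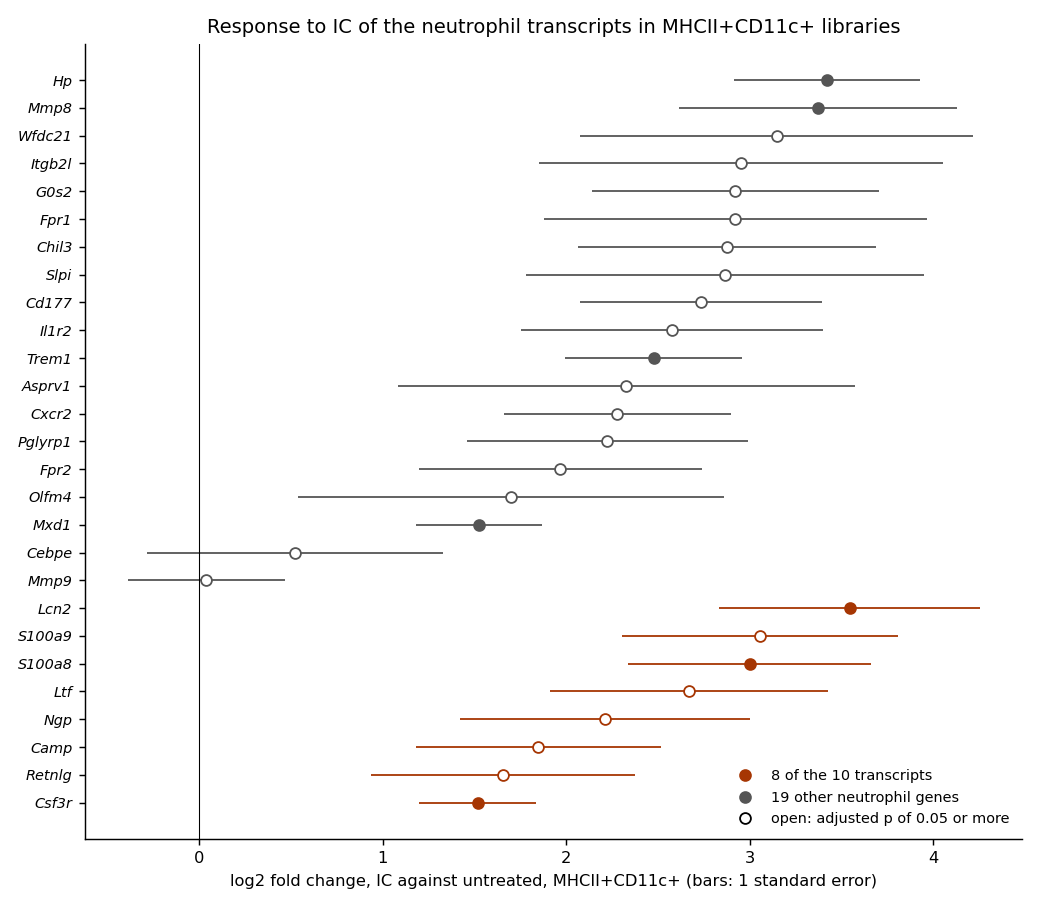
Points give the log2 fold change of IC against untreated MHCII+CD11c+ libraries (3 against 3) with 1 standard error as the bar, for the 8 tested transcripts and for 19 other neutrophil genes, and filled points have an edgeR adjusted p under 0.05. All 27 estimates are above 0, 7 are filled, and Mmp9 at 0.04 and Cebpe at 0.52 are the lowest.

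In MHCII+CD11c- macrophages the mean ratios of IC to untreated were 3.17-fold for Lcn2, 3.13-fold for S100a8 and 3.04-fold for S100a9. They were 1.63-fold for Ngp, 1.78-fold for Ltf, 1.65-fold for Camp and 0.952-fold for Retnlg. Without IC library 3 the ratios of Ngp and Ltf turned below 1, at 0.957 and 0.863, and that of Lcn2 was 1.82. Without untreated library 1 they were 2.69 for Ngp, 3.19 for Camp, 4.88 for Lcn2 and 4.68 for S100a9. The ratio of Retnlg turned above 1, at 1.09 to 1.21, without untreated library 1, untreated library 2 or IC library 2. Among the 3 IC libraries, library 3 held the highest level of 9 of the 10 transcripts in this sort, and a library of the same number, which the labels do not tie to it, held the highest level of 8 of the 10 in MHCII+CD11c+ macrophages. S100a8 and S100a9 were the 2 of 10 with every IC library above every untreated library, as were 5.68% of genes. Without IC library 3 the summed level after IC was 1721 CPM in place of 2707 CPM.

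In LYVE1+CX3CR1+ macrophages, none of the 8 transcripts tested was called by edgeR (6 of 8 had an unadjusted p under 0.05), against 0.464% of all genes called in either direction. DESeq2 called 1, S100a8, with an adjusted p of 0.0353. Of the 8, 5 had no count in any untreated library of this sort. Apart from Csf3r, the 10 transcripts had 2, 288 and 16 counts in IC libraries 1, 2 and 3, and 0, 1 and 9 counts in the untreated libraries. The summed level after IC was 74.8 CPM with and 21.8 CPM without IC library 2. That library had 84 H2-Ab1 counts (44.3 CPM), the highest of the 6 LYVE1+CX3CR1+ libraries, and no erythroid count. IC library 3 was close to it, with 78 H2-Ab1 counts (37.5 CPM), but had the 16 counts given above. The B cell list sum of IC library 2, 4.74 CPM, was also the highest of the 6. It came from 9 counts, against 5 in untreated library 3. The part of other cells in this result was not tested. The difference in IC response between LYVE1+CX3CR1+ and MHCII+CD11c+ macrophages was called for none of the 8 transcripts by edgeR, against 0.00948% of all genes. None had an unadjusted p under 0.05, and none was called by DESeq2. This does not show that the responses were alike, because 5 of the 8 had no untreated count in LYVE1+CX3CR1+ macrophages. The SE of the difference ran from 0.48 for Csf3r to 3.80 for Ngp.

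The proportions of some of the 10 transcripts differed between untreated and IC libraries. In the 12 libraries with at least 30 Ngp counts, a minimum chosen after the counts were seen, each transcript was divided by the Ngp counts of the same library. S100a9 was at 0.73 to 1.16 times Ngp in the 5 untreated libraries, with a median of 0.801, and at 1.41 to 2.05 times Ngp in the 7 IC libraries, with a median of 1.70. The 2 sets did not overlap, and the IC set included LYVE1+CX3CR1+ library 2 at 1.42. Lcn2 likewise went from 0.229 to 0.388 to 0.411 to 0.75 times Ngp, without overlap. S100a8 overlapped, at 0.303 to 0.59 and 0.53 to 1.01. Mpo went the other way without overlap, at 0.00446 to 0.647 times Ngp untreated and 0 to 0.00282 after IC. Its highest value came from untreated MHCII+CD11c+ library 1, and it had few counts elsewhere. The share of all genes without such overlap was not computed.

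Unlike Lcn2, the secondary granule transcripts Ltf and Camp overlapped between the conditions in their ratio to Ngp. Ltf was at 0.548 to 0.971 times Ngp untreated and 0.367 to 0.964 after IC, with medians of 0.656 and 0.741. Camp was at 0.0848 to 0.193 and 0.0152 to 0.214, with medians of 0.169 and 0.142. Retnlg had medians of 0.131 and 0.0812. As a share of the summed counts of the 10 transcripts, S100a9 made up 20.0 to 24.3% in untreated and 27.4 to 36.2% in IC libraries, with single-library 95% Wilson intervals reaching from 16.5 to 27.8% and from 23.0 to 40.9%. The 12 libraries, 6 of MHCII+CD11c-, 5 of MHCII+CD11c+ and 1 of LYVE1+CX3CR1+ macrophages, were pooled in these ranges and no test was made. The LYVE1+CX3CR1+ library supplied the lowest IC share, and the next lowest was 29.7%, in MHCII+CD11c- IC library 3.

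**Figure D4:**
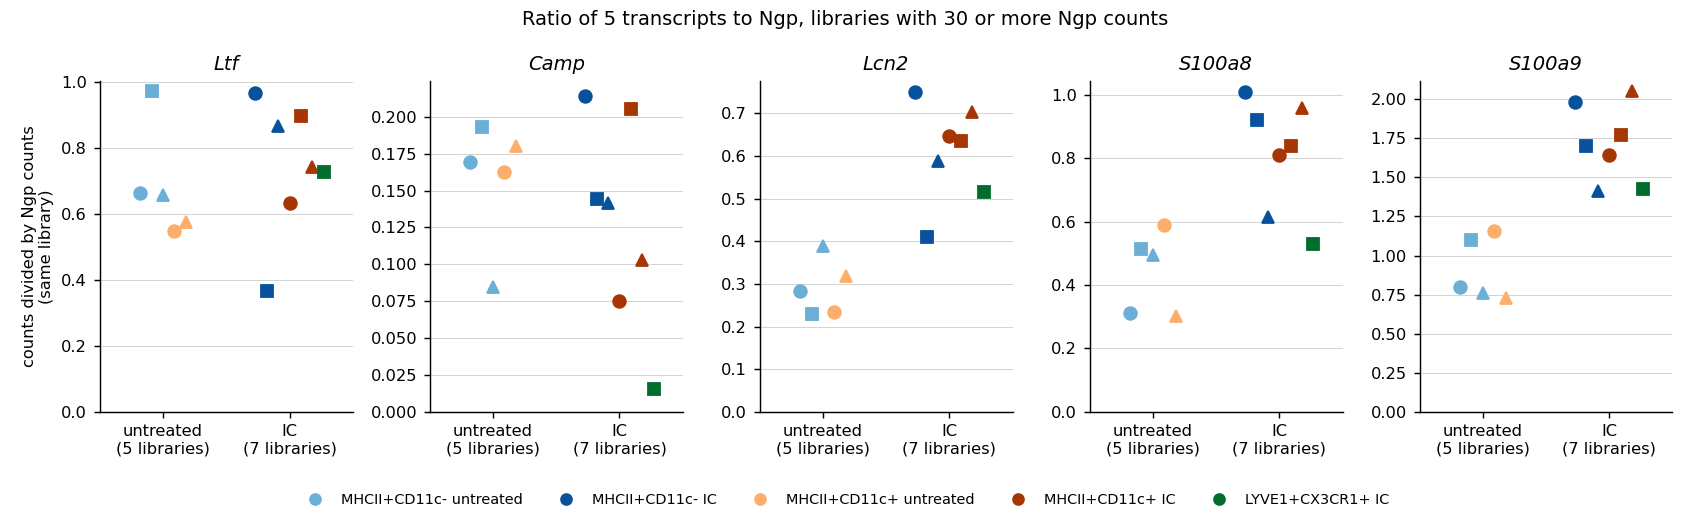
For 5 transcripts, the counts divided by the Ngp counts of the same library are plotted for the 5 untreated and 7 IC libraries with at least 30 Ngp counts, coloured by sort and treatment on axes that start at 0. S100a9 and Lcn2 do not overlap between untreated and IC libraries, while Ltf, Camp and S100a8 do.

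Other genes of the neutrophil lineage were examined as a list of 27, of which 26 had a row in the files and 19 passed the filter on low counts. Cxcr1 was at 0 in every library, and Ly6g was not analysed here. These genes include defining markers: Cxcr2, the chemokine receptor of mature neutrophils, had 10, 12 and 10 counts in untreated and 10, 12 and 53 counts in IC libraries of MHCII+CD11c- macrophages, and at most 4 counts in any LYVE1+CX3CR1+ library. Mmp8, the neutrophil collagenase, had 23, 24 and 26 and 10, 7 and 103 counts in the same 6 libraries.

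Cd177, a glycoprotein of the neutrophil surface, was at least 21.1-fold higher in MHCII+CD11c- than in LYVE1+CX3CR1+ macrophages without treatment, Hp, haptoglobin of secondary granules, at least 15.4-fold, and Chil3, a chitinase-like protein, at least 28.6-fold. Mmp9, gelatinase B of tertiary granules and also a macrophage product, had a log2 difference of 4.70 (SE 0.56, edgeR adjusted p = 1.77e-06). By edgeR's test 15 of the 19 genes were higher without treatment, where 7.12% of all genes were, and 19 of 19 after IC, where 6.45% of all genes were. Nothing is read from these counts: 11 of the 19 had no count in any untreated LYVE1+CX3CR1+ library and 14 had at most 3 counts in each, so that they passed the filter through the MHCII+ libraries, where they were high. Of the promyelocyte genes, Prtn3, Ctsg, Ms4a3, Gfi1 and Fcnb did not pass the filter, while Cebpe did, with 0 to 8 counts in MHCII+CD11c-, 7 to 22 in MHCII+CD11c+ and 0 in all LYVE1+CX3CR1+ libraries.

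Between the 2 MHCII+ sorts, none of the 19 was called by edgeR, either without treatment (7 at an unadjusted p under 0.05) or after IC (0 at an unadjusted p under 0.05), against 3.49% and 2.84% of all genes, and DESeq2 called none in either. The median log2 difference was 1.46 without treatment, with MHCII+CD11c- higher for 16 of 19, and 0.56 after IC. Leaving out untreated MHCII+CD11c+ library 1, the library with Mpo and Elane, gave 4 calls without treatment.

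After IC, 4 of the 19 rose in MHCII+CD11c+ macrophages by edgeR's test, against 0.483% of all genes higher. They were Hp (log2 fold change 3.42, SE 0.51, adjusted p = 0.000999), Mmp8 (3.37, SE 0.76, adjusted p = 0.0328), Trem1, a receptor that amplifies myeloid activation (2.48, SE 0.48, adjusted p = 0.0136), and Mxd1, a MYC antagonist of maturing neutrophils (1.52, SE 0.34, adjusted p = 0.0320). Mxd1 was also present in every LYVE1+CX3CR1+ library, at 14.8 to 50.6 CPM. It stood at 57.9 CPM in untreated MHCII+CD11c+ library 2, which held no Ngp count. All 19 estimates were above 0, with a median of 2.58, and Mmp9 was at 0.04. The count was 1 without untreated library 2, without untreated library 3 or without IC library 3. In MHCII+CD11c- macrophages no gene of the 19 was called by edgeR (10 at an unadjusted p under 0.05, 2 by DESeq2), against 1.06% of all genes, with a median of 1.60. Leaving out IC library 2 of that sort, the smallest library, gave 3 calls. In LYVE1+CX3CR1+ macrophages none was called by edgeR (4 at an unadjusted p under 0.05) or by DESeq2, but Asprv1, Cebpe, Itgb2l and Olfm4 had no count in any of the 6 libraries and 6 of the 19 had at most 3 counts in each, so that the test had no value to work on for these.

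The genes whose pattern was most like the summed level of the 10 transcripts were themselves mostly of this lineage. Over the 18 libraries, Pearson's r of log2 CPM was 0.976 for Cd177, 0.966 for Chil3, 0.964 for Hp, 0.954 for Mmp8, 0.946 for G0s2 and 0.941 for Pglyrp1. Epsti1 (0.920), Wfdc21 (0.919), Fcgr4 (0.918) and Cxcr2 (0.908) completed the first 10. Of these, 8 belonged to the neutrophil list, and Epsti1 and Fcgr4, an activating Fc receptor of neutrophils, monocytes and macrophages, did not. The 18 libraries fall into LYVE1+CX3CR1+ and MHCII+ sets, and over the 12 MHCII+ libraries alone r ranged from 0.779 for Fcgr4 to 0.9501 for G0s2. These correlations describe the libraries and share their scaling and depth.

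Markers of other cells were summed by list in each library. The 8 B cell genes with counts summed to 214 to 373 CPM in MHCII+CD11c- libraries, 75.1 to 108 CPM in MHCII+CD11c+ libraries and 0 to 4.74 CPM in LYVE1+CX3CR1+ libraries. Erythroid genes, 9 in the files with Car1 at 0 throughout, were at 25.7 to 2860.2 CPM in untreated and 40.1 to 152 CPM in IC libraries of MHCII+CD11c- macrophages. In MHCII+CD11c+ libraries they were at 1338, 364 and 109 CPM untreated and 412, 24.4 and 33.5 CPM after IC. The sums of 2860.2 and 1338 CPM were both in untreated library 1 of their sort, the library in which 8 and 10 of the 10 transcripts were highest among the untreated ones. In LYVE1+CX3CR1+ libraries the erythroid sum was 0 to 37.2 CPM except for 1151 CPM in untreated library 2, which had 1 count of the 10 transcripts besides Csf3r. The list of mast cells, basophils and eosinophils summed to 1062, 6.11 and 29.6 CPM in untreated and 78.4, 124 and 74.1 CPM in IC libraries of MHCII+CD11c- macrophages, with untreated library 1 again highest, and to 0 to 8.64 CPM in LYVE1+CX3CR1+ libraries. T and NK cell genes were at 0 to 4.65 CPM, with Cd3e, Cd3g and Gzma at 0, bone-forming cell genes at 0 to 2.63 CPM, and platelet and megakaryocyte genes at 1.08 to 16.3 CPM. Monocyte genes, which MHCII+ and LYVE1+CX3CR1+ macrophages also express, summed to 1434 to 3305 CPM in MHCII+ and 2992 to 3946 CPM in LYVE1+CX3CR1+ libraries. The part of other cells in the levels of the 10 transcripts was not tested.

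**Figure D5:**
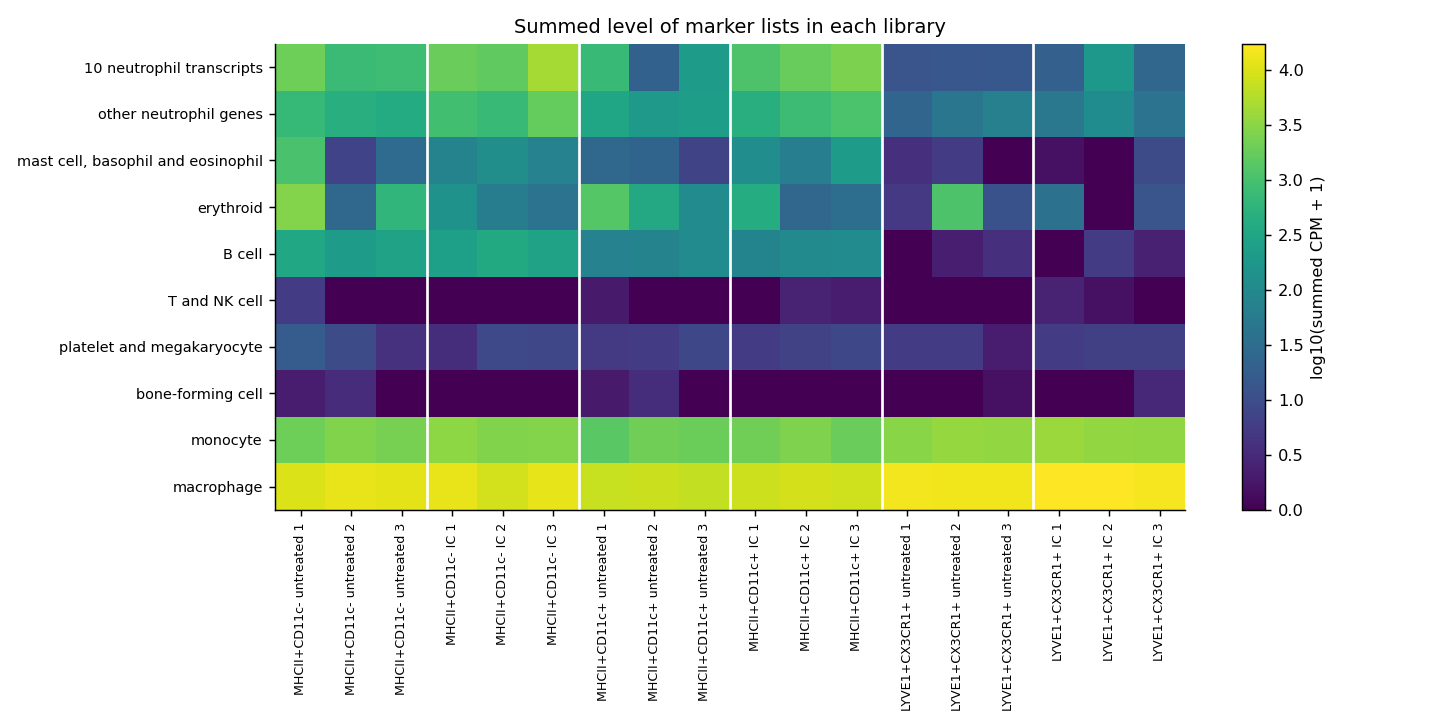
Each cell gives the log10 of the summed CPM plus 1 of a marker list (rows) in a library (columns), with white lines between groups. The row of the 10 neutrophil transcripts is bright in MHCII+ libraries other than untreated MHCII+CD11c+ library 2 (19.7 CPM) and, less so, in LYVE1+CX3CR1+ IC library 2 (181 CPM), while the erythroid row is brightest in untreated library 1 of both MHCII+ sorts (2860.2 and 1338 CPM) and is bright in untreated LYVE1+CX3CR1+ library 2 (1151 CPM), where the neutrophil row is dark.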

How the data were processed

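The authors prepared libraries from 5 ng of total RNA with a stranded pico-input total RNA kit and sequenced paired 150-base reads. Per the labels and methods, they trimmed with Trim Galore, checked with FastQC, aligned with HISAT2 to mm10 and counted reads per gene with featureCounts. Versions, annotation, strand setting and the handling of multi-mapping reads are not given in the sources used here, so counts of close relatives (Retnlg and other resistin-like genes) are uncertain. The deposited counts of 18 libraries were read as they stand, and a combined table of the same counts was not used. The 10 transcripts and all gene lists were chosen with earlier results of these data known.

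Counts were scaled by TMM and tested with edgeR 4.0.16 (R 4.3.3) by the quasi-likelihood test, with all 6 groups in 1 fit, genes kept by filterByExpr (minimum count 10, minimum total 15; 10550 genes) and an adjusted p threshold of 0.05. The adjustment was Benjamini-Hochberg over all genes kept. CPM are TMM-scaled, with a prior count of 2 in logs. DESeq2 1.42.0 and sva 3.50.0 served as alternatives, together with other scalings and filters, the compared libraries alone, a replicate block and leaving out each library. Both count tests were tested on simulated data. Depth was 245903 to 2172358 counts per library, so that 1 count is worth 0.480 to 3.77 CPM. Named genes were the 10 transcripts, the called or defining genes of the neutrophil list, and the 10 genes with the highest Pearson r to the summed level.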

Additional observations from a re-analysis of the deposited data

How the results depend on the processing

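Alternatives were run for 9 counts of called genes and 6 summed levels, and those for the other neutrophil genes after IC in MHCII+CD11c+ and LYVE1+CX3CR1+ macrophages were chosen after seeing the data. For the IC response of the 10 transcripts in MHCII+CD11c+ macrophages, 3 were called, against 1 by DESeq2, 9 with no filter on low counts, 1 under a minimum of 10 counts per library (1 tested), 5 with the compared libraries alone and 0 to 5 on leaving out 1 library. All these counts take in both directions. With no filter Mpo and Elane were tested too, and both had lower mean CPM after IC, so the 9 calls are not all rises. For the IC response of the 10 transcripts in LYVE1+CX3CR1+ macrophages, 0 were called, against 1 by DESeq2 and 5 with no filter, and Retnlg, at a log2 fold change of 0.51, ranged from -3.76 without IC library 2 (edgeR adjusted p = 0.978) to 2.14 on leaving out 1 library. Without IC library 2, Ngp, Camp and Lcn2 had no count left in that comparison. For the other neutrophil genes against LYVE1+CX3CR1+ macrophages, the 15 calls without treatment were 0 under that minimum and 8 with the compared libraries alone, and the 19 after IC were 1 and 11, with 1 gene tested under the first and 9 and 12 under the second. Between the MHCII+ sorts, the 0 calls without treatment became 5 with no filter, 1 with the compared libraries alone, 2 with a surrogate variable and 0 to 4 on leaving out 1 library, and the 0 after IC became 1 with no filter. For their IC response in MHCII+CD11c- macrophages, 0 became 1 with DESeq2 size factors, 2 by DESeq2, 6 with no filter, 1 under the minimum of 10 counts, 3 with a surrogate variable and 0 to 3 on leaving out 1 library. In MHCII+CD11c+ macrophages, 4 became 11 with no filter, 1 under the minimum of 10 counts, 7 with the compared libraries alone and 1 to 5 on leaving out 1 library, and in LYVE1+CX3CR1+ macrophages 0 became 3 with no filter. Fewer genes were tested under the stricter filter and with the compared libraries alone, and for the other alternatives the cause was not tested. Without S100a8 and S100a9 the summed level was 930 CPM in place of 1819 in IC libraries of MHCII+CD11c+ macrophages. In untreated libraries of LYVE1+CX3CR1+ macrophages it was 12.2 in place of 12.9 CPM. Under the other scalings the summed levels moved by less than 1 SD. On leaving out 1 of 3 libraries a mean cannot move by 1 SD, whatever the values, so nothing is read from that. Some summed levels given above changed several-fold without a single library.

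The labels number libraries 1 to 3 in every group. Deviations from group means correlated at -0.0478 to 0.136 between untreated and -0.00862 to 0.116 between IC libraries of the same number, so that the numbers did not meet the rule for pairing, although 14 of 18 libraries correlated best with a library of their own number. With the number as a replicate block, the count of other neutrophil genes called for the IC response in MHCII+CD11c- macrophages was 1 in place of 0, and the other counts stayed within 1.5 times their value. Libraries with few counts limit what could be detected: in MHCII+CD11c- IC library 2, 3 counts are worth 11.3 CPM.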

Other observations

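Eosinophil transcripts were concentrated in a few libraries. Prg2, eosinophil major basic protein, had 584 counts in untreated MHCII+CD11c- library 1, 221 in IC library 3 of MHCII+CD11c+ macrophages and 53 in IC library 1 of that sort. It had 0 to 39 counts in each of the other 15 libraries. Epx, eosinophil peroxidase, had 276, 51 and 15 counts in those 3 libraries and at most 6 in any other. MHCII+CD11c- IC library 3, with the highest share of the 10 neutrophil transcripts, had 39 Prg2 and 3 Epx counts.

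Haemoglobin transcripts were highest in 3 untreated libraries, and in MHCII+CD11c- and MHCII+CD11c+ macrophages these were also the untreated libraries highest in 8 and 10 of the 10 neutrophil transcripts. Hbb-bs, a beta-globin, had 423 counts in untreated library 1 of MHCII+CD11c- macrophages, 413 in untreated library 1 of MHCII+CD11c+ macrophages and 306 in untreated library 2 of LYVE1+CX3CR1+ macrophages, where Ngp, Ltf and Mpo were at 0. In MHCII+CD11c- IC library 3 it was at 0. Alas2, an erythroid haem synthesis enzyme, had 49, 36 and 28 counts in the first 3 libraries and at most 10 in the others. The mice were perfused before dissection.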
